A study of Mus musculus with 4 samples.

Results

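The pancreatic lipases and colipase are 5 genes of secreted fat-digesting proteins: Pnlip, Pnliprp1, Pnliprp2, Cel and Clps. They were chosen by name, with earlier results of these data known, and all 5 were found among the 32288 features of the deposited mouse pancreas count table. Their unique molecular identifiers (UMIs, each marking 1 captured transcript) were summed within each mouse over the 8 deposited cell types. The table held 21140 cells, of which 13362 carried a deposited cell type and 7778 did not.

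The mice had the genotype Ptf1aCre-ERTM;ROSAYFP/+, backcrossed into CD-1, and were 10 weeks old when injury began. In this model an inducible Cre expressed from Ptf1a, a gene of acinar cells, switches on EYFP permanently, so that acinar cells and whatever they become stay marked. All 4 mice received tamoxifen by oral gavage (5 mg a day on 5 days a week, over 2 weeks) and then caerulein, a cholecystokinin analogue that causes pancreatitis, by intraperitoneal injection 2 times a day on 5 days a week followed by 2 days of recovery. The caerulein cycles lasted 2 weeks in 2 mice and 4 weeks in the other 2. No uninjured group is among the samples, so every level below is a level in injured pancreas. EYFP+ cells were sorted and sequenced from the 3' end of the transcript on the 10x platform.

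Pancreatic acinar cells make these proteins, store them in zymogen granules and release them into the duct. Pnlip encodes pancreatic lipase, which splits dietary triglyceride and needs colipase, the Clps product, to hold on to fat droplets covered in bile salts. Pnliprp1 encodes a close relative with little known lipase activity, and Pnliprp2 encodes a relative that also cleaves galactolipids and phospholipids and is known from the digestion of milk fat. Cel encodes the bile salt-stimulated carboxyl ester lipase, which splits cholesterol esters and other lipid esters. Acinar genes of this kind are driven by a complex of the transcription factors Ptf1a and Rbpjl, whose known sites pair an E-box with a TTTCCC-type box.

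Pnlip, Pnliprp1 and Pnliprp2 lie next to each other on the plus strand of chromosome 19 in the mouse build GRCm38 (mm10), at 58652498 to 58681788, 58728887 to 58744169 and 58759719 to 58777534. Cel lies on the minus strand of chromosome 2 at 28555795 to 28563403, and Clps on the minus strand of chromosome 17 at 28558149 to 28560766. All 5 are annotated as protein coding. The 250 bases before the transcription start are shown for the 4 lipases. They come from RefSeq on GRCm38.p6 and are written 5′ to 3′ on the strand of the gene, with motifs in capitals: E-boxes (CACCTG, which reads CAGGTG on the other strand), TTTCCC boxes (which read GGGAAA on the other strand) and TATA boxes (TATAAA, searched on the gene strand only). RefSeq starts Pnlip within the annotated interval given above. Clps had no entry.
Pnlip chr19:58670115-58670364 (+): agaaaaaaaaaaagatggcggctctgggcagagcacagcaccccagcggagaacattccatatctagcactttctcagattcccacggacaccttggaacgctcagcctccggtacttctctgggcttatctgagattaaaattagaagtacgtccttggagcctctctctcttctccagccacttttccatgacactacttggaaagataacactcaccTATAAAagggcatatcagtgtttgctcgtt
Pnliprp1 chr19:58728637-58728886 (+): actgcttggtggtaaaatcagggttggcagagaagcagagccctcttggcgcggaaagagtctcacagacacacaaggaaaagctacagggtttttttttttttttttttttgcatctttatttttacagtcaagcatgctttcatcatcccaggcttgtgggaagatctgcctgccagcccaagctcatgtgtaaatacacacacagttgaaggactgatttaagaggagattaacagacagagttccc
Pnliprp2 chr19:58759473-58759722 (+): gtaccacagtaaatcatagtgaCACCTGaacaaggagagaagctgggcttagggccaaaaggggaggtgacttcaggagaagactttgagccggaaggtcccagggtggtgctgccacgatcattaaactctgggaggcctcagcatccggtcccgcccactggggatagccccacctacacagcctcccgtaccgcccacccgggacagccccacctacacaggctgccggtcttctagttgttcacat
Cel chr2:28563404-28563653 (-): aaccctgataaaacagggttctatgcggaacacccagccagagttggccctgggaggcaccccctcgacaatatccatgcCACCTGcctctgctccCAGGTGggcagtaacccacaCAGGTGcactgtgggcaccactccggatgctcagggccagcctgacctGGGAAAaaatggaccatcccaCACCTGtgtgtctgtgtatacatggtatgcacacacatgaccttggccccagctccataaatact

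The Cel promoter held 4 E-boxes and 1 TTTCCC box, which none of the others combined. Pnlip held 1 TATA box, 30 to 25 bases upstream of its start, Pnliprp2 held 1 E-box, and Pnliprp1 held none of the 3 motifs. Among 32851 mouse promoters of the same length, 17.2% held the E-box, 21.9% the TTTCCC box and 7.59% the TATA box. The motifs do not overlap each other in these sequences, and a match is a match of letters, not a measured binding site.

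The libraries held 4715 and 5268 cells from the 2-week mice and 4902 and 6255 cells from the 4-week mice, and 72459531 to 103610807 UMIs. Values per mouse are given below as mouse 1 and mouse 2 of each time point, in that order. Of 21068 distinct cell barcodes, 67 occurred in more than 1 library. Free RNA from broken acinar cells can put digestive enzyme UMIs into any droplet. It was gauged from cells without a deposited type that clustered as B cell-like or T/NK cell-like, 268 and 329 after 2 weeks and 421 and 290 after 4, which are called background cells below. The 2-week mouse 2 stood apart: its background cells held 7116 CPM (a gene's UMIs for every 1000000 UMIs of all genes) of 8 acinar marker genes, against 24113 to 24979 CPM in the other mice, its Acinar/MucinDuctal cells had a median of 19556 UMIs against 2659 to 3555, and it gave the most MucinDuctal and Tuft cells. Levels over background that rest on it are also given without it, a setting chosen after seeing the data.

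Pnlip, Pnliprp1, Cel and Clps were highest in the cells the authors labelled Acinar and Acinar.Prolif (proliferating acinar cells), lower in Acinar/MucinDuctal cells and far lower in the other types. Pnliprp2 followed this order except in progenitor cells, where by CPM it passed the Acinar.Prolif level in both 4-week mice. The Acinar label fits its markers: the 8 acinar markers, none of them a lipase, summed to 268364 and 303952 CPM after 2 weeks and 327526 and 326167 CPM after 4. In Acinar cells Clps was the most abundant of the 5 by UMIs. Its level was 50916 and 61371 CPM after 2 weeks and 70197 and 50869 CPM after 4, a mean of 58338 ± 9322 CPM (SD, n = 4). The 2-week and 4-week values overlapped, with the highest in the 4-week mouse 1. Every captured transcript gives UMIs from its 3' end only, so these values are not scaled by gene length.

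The lipases followed in the order Pnliprp1, then Pnlip and Cel, then Pnliprp2. Pnliprp1 stood at 22136 and 23516 CPM after 2 weeks and 25157 and 23691 CPM after 4 (23625 ± 1235 CPM, SD, n = 4), the narrowest spread of the 5 relative to its mean. Pnlip stood at 6780.2 and 4111 CPM after 2 weeks and 9948 and 6732 CPM after 4 (6893 ± 2388 CPM, SD, n = 4), the widest. Cel stood at 7036 and 6532 CPM after 2 weeks and 7770.4 and 5978 CPM after 4 (6829 ± 762 CPM, SD, n = 4), so Cel and Pnlip did not differ beyond their spread. Pnliprp2 stood at 1394 and 1362 CPM after 2 weeks and 1606 and 1624 CPM after 4 (1497 ± 138 CPM, SD, n = 4) and did not overlap with any of the other 4. UMIs of Clps therefore outnumbered those of the 4 lipases together: Acinar cells held 1.36 and 1.73 Clps UMIs for each lipase UMI after 2 weeks and 1.58 and 1.34 after 4. Whether the genes are captured equally well was not tested. Per cell, Clps gave 2003 ± 294 UMIs and Pnliprp2 52.1 ± 10.4 UMIs (mean ± SD, n = 4).

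**Figure D1:**
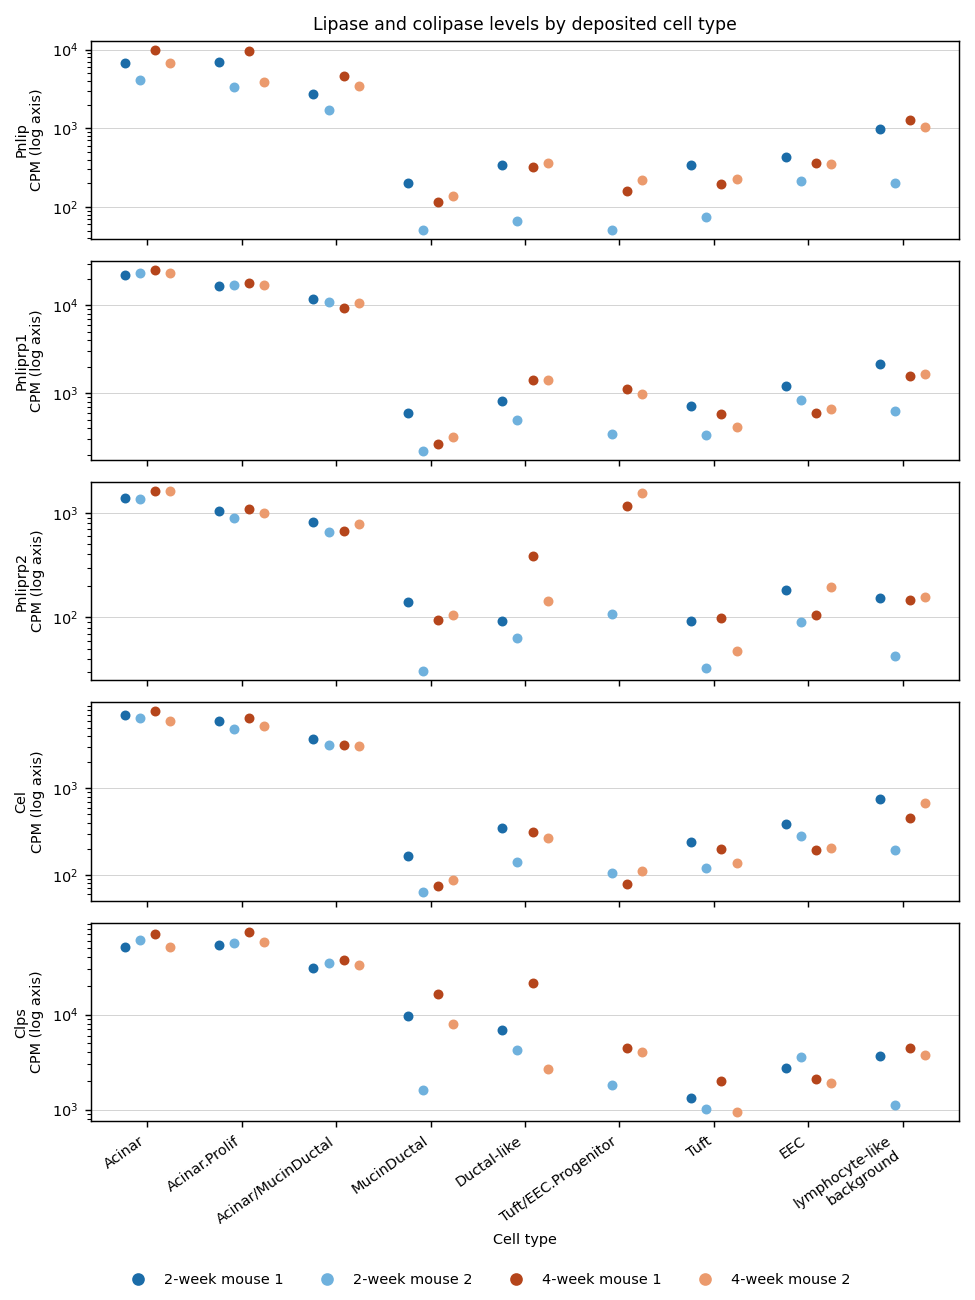
Level of each gene in CPM (log axis) in each deposited cell type and in background cells, with 1 point per mouse and no point where a type had fewer than 20 cells in that mouse. Acinar, Acinar.Prolif and Acinar/MucinDuctal cells sit highest for all genes but Pnliprp2, Clps in MucinDuctal cells lies above the same mouse's background in all 4 mice, and Pnliprp2 in Tuft/EEC.Progenitor cells lies above background in the 3 mice shown.

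In proliferating acinar cells Clps lay near the Acinar level, and the lipases lay lower in most mice. Within each mouse the log2 ratio of Acinar.Prolif to Acinar CPM was 0.06 ± 0.14 for Clps (mean ± SD, n = 4 mice), higher in 3 of 4 mice. It was -0.28 ± 0.36 for Pnlip, -0.46 ± 0.03 for Pnliprp1, -0.58 ± 0.11 for Pnliprp2 and -0.27 ± 0.11 for Cel. Pnliprp1, Pnliprp2 and Cel were lower in 4 of 4 mice, and Pnlip in 3 of 4. No test was made between types, because the types were defined on the same counts.

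Within the Acinar label the authors separated 3 clusters, numbered 0, 6 and 8, and the 5 genes did not rank them alike. Pnlip was highest in cluster 0, at 8960.3 and 6873 CPM after 2 weeks and 11619 and 8903 CPM after 4, and lower in cluster 6, at 4309.8 and 3008 CPM after 2 weeks and 4352 and 4489 CPM after 4. Cluster 8 held 4069 and 1152 CPM after 2 weeks and 5418 and 1736 CPM after 4, so the mice differed most there. Clps ran differently: it was lowest in cluster 6, at 40822 and 41136 CPM after 2 weeks and 50176 and 34750 CPM after 4, and highest in cluster 8 in 3 of 4 mice, at 65746 and 64124 CPM after 2 weeks and 93677 and 77708 CPM after 4. Pnliprp1 showed the reverse order. It was highest in cluster 6 in all 4 mice, at 24723 and 28135 CPM after 2 weeks and 31835 and 27218 CPM after 4, and lowest in cluster 8, at 16462 and 20672 CPM after 2 weeks and 18053 and 17331 CPM after 4. Cel was lowest in cluster 6 in all 4 mice (4820.1 to 6833 CPM, against 6829 to 7903 CPM in cluster 0), and Pnliprp2 was lowest in cluster 8 (1052 to 1331 CPM, against 1538 to 1659.9 CPM in cluster 0). The clusters also differed in depth, with medians of 48746 and 41165 UMIs per cell after 2 weeks and 36818 and 42681 after 4 in cluster 6 and of 12983 and 20645 UMIs per cell after 2 weeks and 13962 and 14149 after 4 in cluster 8. The part of depth in these orders was not tested, and since the clusters were built from the same cells the orders are a description.

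**Figure D2:**
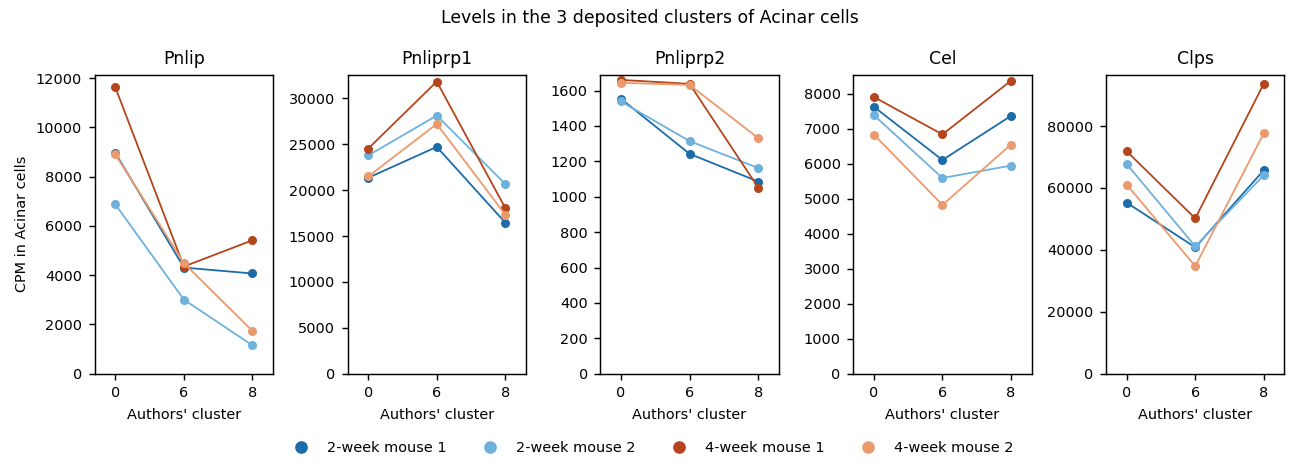
Level of each gene in CPM in the authors' clusters 0, 6 and 8 of Acinar cells, with 1 line per mouse and every axis starting at 0. Pnlip falls from cluster 0 to cluster 6 in every mouse, Pnliprp1 peaks in cluster 6, and Clps and Cel are lowest in cluster 6.

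Cells labelled Acinar/MucinDuctal, which carry acinar and mucin/ductal genes together, held less of every member than the Acinar cells of the same mouse. Pnliprp1 stood at 11878 and 11047 CPM after 2 weeks and 9241 and 10580.1 CPM after 4. Pnlip stood at 2727 and 1703 CPM after 2 weeks and 4564 and 3399 CPM after 4, and Clps at 31297 and 35173 CPM after 2 weeks and 37120.2 and 33175 CPM after 4. For none of the 5 genes did the range over mice reach that of Acinar cells, except for Pnlip, whose highest value here (4564 CPM) passed the lowest Acinar value (4111 CPM). The log2 ratio to Acinar cells within a mouse was -1.17 ± 0.15 for Pnlip, -1.15 ± 0.23 for Pnliprp1, -1.04 ± 0.20 for Pnliprp2 and -1.05 ± 0.18 for Cel (mean ± SD, n = 4 mice). It was smaller for Clps, at -0.76 ± 0.13. All 5 ratios were below 0 in 4 of 4 mice. These ratios are on the CPM scale, and per cell the gap was wider. Clps averaged 705 UMIs per cell after 2 weeks and 240 after 4, against 1787 and 2220 in Acinar cells. Pnlip averaged 41.2 and 27.3 UMIs per cell, against 177 and 305. The depth of Acinar/MucinDuctal cells differed widely between mice, as given above.

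The authors' 2 main clusters of these cells differed by a wide margin. Cluster 3 held Clps at 41921 and 49351 CPM after 2 weeks and 48125 and 40676 CPM after 4 and cluster 4 at 18488 and 21971 CPM after 2 weeks and 28309.7 and 22491 CPM after 4. The lipases differed more: Cel stood at 4247 to 5952 CPM in cluster 3 and 1030.3 to 1544 CPM in cluster 4, and Pnliprp1 at 13571 to 18554 and 3751 to 6267 CPM. None of these 3 genes overlapped between the clusters. Cluster 4 still stood above background cells of the same mouse for Clps and Pnliprp1, whose background levels were 1106 to 4409 and 627 to 2179.9 CPM.

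Across single cells, the 5 genes went together in the intermediate cells and much less so in Acinar cells. Each cell with at least 1500 UMIs was thinned to 1500 and Spearman's rho was taken over the cells of a mouse, as a description, since cells of a mouse share a library. Cells under 1500 UMIs were left out. The authors' clusters within a label, which differ in these genes, were pooled, and their part in rho was not tested. In Acinar/MucinDuctal cells all 10 pairs were positive in all 4 mice, from 0.23 to 0.70 for Pnlip with Clps to 0.58 to 0.81 for Pnliprp1 with Cel. In Acinar cells 2 pairs were negative in all 4 mice, Pnlip with Pnliprp1 (-0.24 to -0.02) and Pnliprp1 with Clps (-0.34 to -0.01). Both were near 0 in the 2-week mouse 2. Pnliprp2 with Clps ran from -0.07 to 0.02, and the other 7 pairs were weakly positive, between 0.12 and 0.31. In MucinDuctal cells Pnliprp2 with Clps ran from 0.11 to 0.22, and from 0.14 to 0.29 with cells thinned to 3000 UMIs. These counts are sparse and such a weak correlation is no finding.

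**Figure D3:**
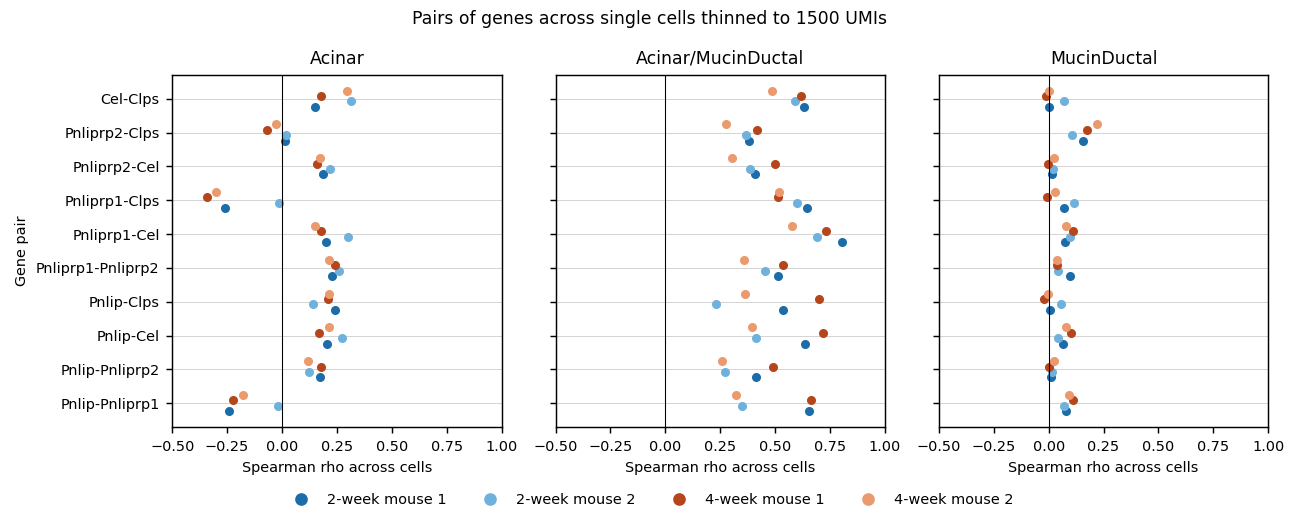
Spearman's rho between each pair of the 5 genes across single cells thinned to 1500 UMIs, with 1 point per mouse, in Acinar, Acinar/MucinDuctal and MucinDuctal cells. All points lie right of 0 in Acinar/MucinDuctal cells, while Pnlip with Pnliprp1 and Pnliprp1 with Clps lie left of 0 in Acinar cells.

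In MucinDuctal cells Clps parted from the lipases. The label fits its markers: 8 mucin and ductal markers summed to 43194 and 17523 CPM after 2 weeks and 60930.2 and 42493 CPM after 4, against 2065 and 2693 CPM after 2 weeks and 2249.7 and 1754 CPM after 4 in Acinar cells. Clps stood at 9639 and 1607 CPM after 2 weeks and 16308 and 7945 CPM after 4 (8874 ± 6042 CPM, SD, n = 4). Background cells held 3706 and 1106 CPM after 2 weeks and 4409 and 3792 CPM after 4. The MucinDuctal value was above the background value of its own mouse in 4 of 4 mice, by 1.22 ± 0.56 on the log2 CPM scale (mean ± SD), and the 2-week mouse 2 was lowest in both. Per cell the gap was wider, 42.9 to 305 UMIs against 5.39 to 22.4 UMIs, a log2 ratio of 3.51 ± 0.39 (mean ± SD, n = 4 mice), in cells that are deeper (a median of 19304 and 21810 UMIs after 2 weeks and 15110 and 15305 UMIs after 4, against 3632 and 3873 UMIs after 2 weeks and 3542 and 2917 UMIs after 4 in background cells). Without the 2-week mouse 2 the mean MucinDuctal level of Clps was 11297 CPM and the mean log2 excess over background 1.44. All cells without a deposited type, which include acinar-like clusters, held more Clps by CPM, 13976 ± 5525 CPM (mean ± SD, n = 4). A wider set of cells without a type took in all clusters named as immune, fibroblast, endothelial, mesothelial or pericyte cells. It held 2773 ± 867 CPM (mean ± SD, n = 4), from 1542 to 3566 CPM, below the MucinDuctal mean. The mean CPM excess thus held against the background cells and this wider set, but not against all cells without a type.

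By CPM, the 4 lipases did not stand above background in the same cells. Pnlip, the enzyme that works with colipase, was at 203 and 50.6 CPM after 2 weeks and 116 and 139.9 CPM after 4, and background cells held 969 and 203 CPM after 2 weeks and 1292 and 1046 CPM after 4. Pnliprp1 was at 591 and 221 CPM after 2 weeks and 267 and 316 CPM after 4, against 627 to 2179.9 CPM in background cells. Cel (63.8 to 165 CPM against 193 to 752) and Pnliprp2 (30.6 to 141 CPM against 43.03 to 158) were likewise below the background of the same mouse in 4 of 4 mice. Per cell, Pnliprp2 was above background in 4 of 4 mice (log2 ratio 1.84 ± 0.46), and the other 3 in 2 of 4. At this depth, Pnlip, Pnliprp1 and Cel in MucinDuctal cells cannot be told from free RNA.

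The makeup of the family's UMIs shows the same split without any depth scale. Clps made up 89.8% and 81.5% after 2 weeks and 96.7% and 92.4% after 4 of the UMIs of the 5 genes in MucinDuctal cells (90.1 ± 6.44%, SD, n = 4), or 92.98% on average without the 2-week mouse 2. In Acinar cells it made up 59.9 ± 2.92% and in background cells 47.8% and 50.9% after 2 weeks and 56.01% and 51.7% after 4. The MucinDuctal range lay above both other ranges. MucinDuctal cells held 8.76 and 4.39 Clps UMIs for each lipase UMI after 2 weeks and 29.6 and 12.2 after 4. Background cells held 0.914 and 1.04 after 2 weeks and 1.27 and 1.07 after 4. When the share was averaged over single cells instead, it came to 78.3%.

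**Figure D4:**
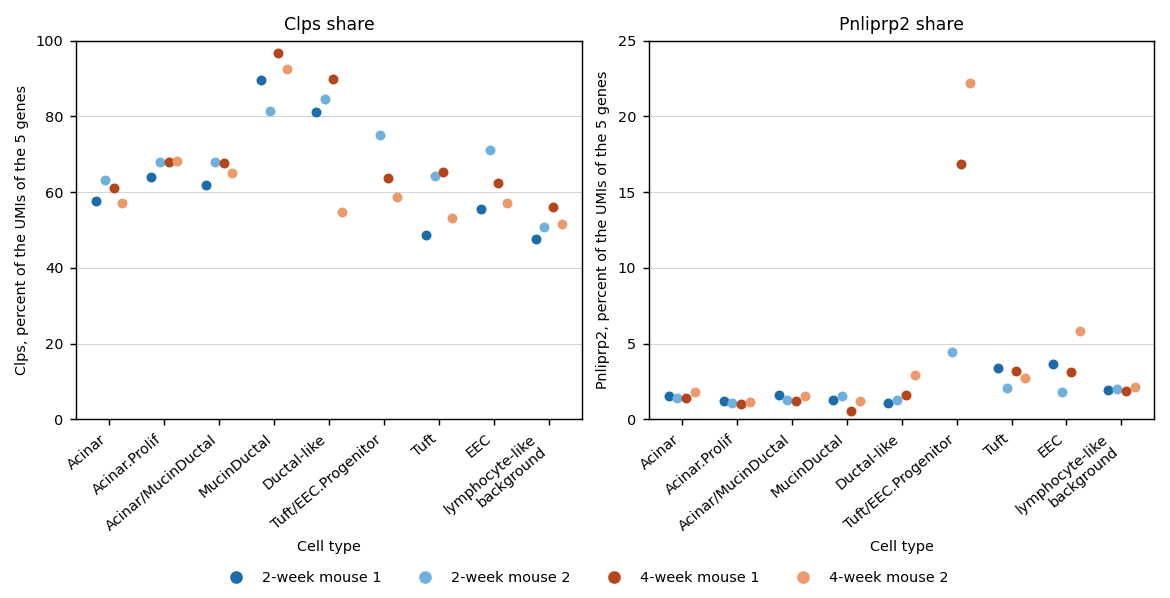
Share of Clps (left, axis 0 to 100%) and of Pnliprp2 (right, axis 0 to 25%) in the summed UMIs of the 5 genes, by cell type, with 1 point per mouse and no point where a type had fewer than 20 cells. The Clps share is 81.5 to 96.7% in MucinDuctal cells against 47.8 to 56.0% in background cells, and the Pnliprp2 share in Tuft/EEC.Progenitor cells reaches 22.2%.

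Clps was uneven among MucinDuctal cells. In the authors' cluster 2 of these cells it stood at 11554 and 3706 CPM after 2 weeks and 18638 and 11995 CPM after 4, and in cluster 1 at 4227 and 1119 CPM after 2 weeks and 5573 and 2448 CPM after 4. Cluster 2 was higher than cluster 1 in all 4 mice, and above background by 1.78 ± 0.20 on the log2 CPM scale (mean ± SD, n = 4 mice), while cluster 1 was at -0.02 ± 0.43. Per cell, cluster 1 held 59.1 ± 26.5 Clps UMIs, against 14.2 ± 7.01 in background cells. Clps made up 80.0 ± 7.11% of the family's UMIs in cluster 1, against 51.6 ± 3.40% in background cells. So whether cluster 1 stood above background depended on the scale. Cluster 2 held 11.6 and 10.04 Clps UMIs for each lipase UMI after 2 weeks and 34.3 and 18.6 after 4. The mice also differed in which cluster filled the type, since cluster 1 held 1138 of the 1388 MucinDuctal cells of the 2-week mouse 2 and 228 of the 961 of the 4-week mouse 1.

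MucinDuctal cells above the 90th percentile of Clps in their mouse were set beside Acinar cells, to see how much else of an acinar cell they held. They had a median of 812 and 165 Clps UMIs after 2 weeks and 1170 and 706 after 4. Their median of Pnliprp1 was 14 and 7 UMIs after 2 weeks and 5 and 6 UMIs after 4, where Acinar cells held 514 and 486 after 2 weeks and 632 and 663 after 4. Their median of 22 other digestive enzymes was 556 and 515 UMIs after 2 weeks and 383 and 379 UMIs after 4, where Acinar cells held 9961 and 8235 after 2 weeks and 10804 and 14514 after 4. The cells richest in Clps thus held far less of these enzymes than an Acinar cell, but more than the rest of their own type, whose medians were 261 and 86 UMIs after 2 weeks and 121 and 128 UMIs after 4. They were also deeper than the rest of their type, with medians of 37339.5 and 32539 UMIs after 2 weeks and 35105 and 26628 UMIs after 4 against 18253 and 21024 after 2 weeks and 14496 and 14703 after 4. No doublet caller was run. Without the 5% of cells of each mouse with the most UMIs, the mean MucinDuctal level of Clps was 8303 CPM, against 8874 CPM with them.

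Clps was not alone among acinar products in standing above background in MucinDuctal cells. By CPM, 3 of 22 other digestive enzymes were above the background of the same mouse in 4 of 4 mice and 15 were below it in 4 of 4. The 3 were Pla2g1b, Cela1 and Klk1. Pla2g1b, the secreted pancreatic phospholipase A2, stood at 937 and 121 CPM after 2 weeks and 1370.1 and 599.6 CPM after 4, against 383 and 44.9 CPM after 2 weeks and 249.6 and 305 CPM after 4 in background cells. Cela1, an elastase, stood at 2999.6 and 749 CPM after 2 weeks and 3248 and 2580.1 CPM after 4, against 1248 and 143 CPM after 2 weeks and 995 and 939 CPM after 4. Klk1, a tissue kallikrein, stood at 295 and 146 CPM after 2 weeks and 554 and 443 CPM after 4, against 171 and 56.1 CPM after 2 weeks and 273 and 135 CPM after 4. Cpa1, a carboxypeptidase, is an example of the 15, at 381 and 174 CPM after 2 weeks and 167 and 232 CPM after 4, against 1848 and 556 CPM after 2 weeks and 1384 and 1746 CPM after 4.

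Pnliprp2 parted from the family in the Tuft/EEC.Progenitor cells, named by the authors as progenitors of tuft and enteroendocrine (EEC) cells. It stood at 2251 and 108 CPM after 2 weeks and 1173 and 1538 CPM after 4, from 10, 142, 25 and 28 cells, and background cells held 152 and 43.03 CPM after 2 weeks and 146 and 158 CPM after 4. The 2-week mouse 2 was far below the other mice, and the 2-week mouse 1 rests on 10 cells, under the minimum of 20 set for this comparison. In the 3 mice with enough cells it was above background in 3 of 3, by 2.54 ± 1.06 on the log2 CPM scale (mean ± SD), and by 3.14 on average without the 2-week mouse 2. Against all cells without a deposited type, which include acinar-like clusters, the mean excess was smaller and Pnliprp2 was above in 2 of 3. In the 4-week mice the CPM of the summed cells was close to that of Acinar cells (1606 and 1624 CPM). Per cell Pnliprp2 was lower, with a 4-week mean of 20.4 UMIs against 60.0 UMIs in Acinar cells. Pnliprp2 was also uneven among progenitor cells. Limits set from background cells were 6 and 2 UMIs after 2 weeks and 4 and 4.11 after 4. They were passed by 7 of 10 and 25 of 142 cells after 2 weeks and 13 of 25 and 12 of 28 after 4. Cells past the limit held medians of 47 and 5 Pnliprp2 UMIs after 2 weeks and 20 and 18 after 4. The rest held 3 and 0 and then 0.5 and 0. Acinar cells held 32 and 25 and then 39 and 45, without scaling for depth.

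The other lipases were below background by CPM in these 3 mice: the log2 ratio was -2.42 ± 0.54 for Pnlip, -0.71 ± 0.19 for Pnliprp1 and -2.01 ± 1.00 for Cel. Clps was near it, at 0.28 ± 0.39, and at 0.056 without the 2-week mouse 2. Per cell, in these deeper cells (medians of 14559 to 19517 UMIs), the log2 ratio was 4.53 ± 0.86 for Pnliprp2, 2.27 ± 0.80 for Clps and 1.28 ± 0.26 for Pnliprp1, all above background in 3 of 3 mice, and -0.42 ± 0.99 for Pnlip and -0.0097 ± 1.35 for Cel, each above it in 1 of 3. So Pnliprp2 had the largest ratio of the 5 genes on both scales, but it was not alone above background per cell. By CPM, 0 of the 22 other digestive enzymes were above background in all 3 mice and 14 were below it in all 3. Pnliprp2 made up 14.3% and 4.43% after 2 weeks and 16.9% and 22.2% after 4 of the family's UMIs in these cells, against 1.40 to 1.83% in Acinar cells and 1.86 to 2.16% in background cells. Every mouse was above both ranges, the 2-week mouse 2 least, and the mean of the mice with at least 20 cells was 19.5% without it. After thinning to 1500 UMIs, 74.5% and 11.8% after 2 weeks and 47.4% and 38.1% after 4 of progenitor cells held a Pnliprp2 UMI, against 19.8% and 7.48% after 2 weeks and 8.10% and 18.02% after 4 of background cells.

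A second deposited table of subtypes names Neurog3+ enteroendocrine progenitors, 45 and 166 cells after 2 weeks and 85 and 95 after 4. They outnumbered the Tuft/EEC.Progenitor cells in every mouse, but both labels belong to cells of the same libraries. How far the 2 labels overlap was not counted, so the Neurog3+ cells are not independent evidence. Pnliprp2 stood at 1063 and 180.2 CPM after 2 weeks and 597 and 977 CPM after 4, above background in 4 of 4 mice by 2.38 ± 0.39 on the log2 CPM scale (mean ± SD), and by 2.49 on average without the 2-week mouse 2. Among these cells, 42.2% and 15.7% after 2 weeks and 23.5% and 24.2% after 4 passed the 99th percentile of background cells of the same mouse, with exact binomial (Clopper-Pearson) 95% intervals of 27.7 to 57.8%, 10.5 to 22.1%, 15 to 33.97% and 16.01 to 34.1%, which cover counting error only. That limit was 6 and 2 raw UMIs after 2 weeks and 4 and 4.11 after 4, set in background cells with medians of 2917 to 3873 UMIs, so the shares depend on depth and a cell under the limit is not shown to lack the transcript. The cells past it held a median of 26 and 8 Pnliprp2 UMIs after 2 weeks and 17.5 and 17 after 4, and of all 22 other digestive enzymes together a median of 235 and 89 UMIs after 2 weeks and 96.5 and 218 UMIs after 4. Acinar cells held medians of 32 and 25 Pnliprp2 UMIs after 2 weeks and 39 and 45 after 4. So the median of raw UMIs was below that of Acinar cells in every mouse, although these cells were picked for high Pnliprp2. These medians are not scaled for depth, and the part of depth in this order was not tested. The remaining Neurog3+ cells held 135.5 and 53 UMIs of the other enzymes after 2 weeks and 41 and 94.5 after 4, fewer than the high cells in 4 of 4 mice. Pnliprp1 had medians of 33 and 10.5 UMIs after 2 weeks and 8 and 12 after 4 in the high cells, against 8 and 3 and then 3 and 5 in the remaining cells. Clps had medians of 93 and 46.5 UMIs after 2 weeks and 65.5 and 56 after 4 in the high cells, against 18.5 and 14.5 and then 12 and 15.5. The median depth was 13854 to 14926 UMIs in the high cells and 10988 to 14440 UMIs in the remaining cells. Pnliprp1, Clps and the enzyme sum were thus higher in the cells high in Pnliprp2, while Cel, at 3 and 1 and then 1 and 1 UMIs against 3 and 1 and then 1 and 1.5, was not, and Pnlip, at 4 and 1 and then 2 and 3 UMIs against 3 and 1 and then 1 and 3, was higher in 2 of 4 mice. In the Tuft/EEC.Progenitor cells of the 4-week mouse 1 the enzyme sum went the other way, with a median of 63 UMIs in high cells and 114.5 UMIs in the rest.

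In the 7 other endocrine and tuft subtypes, Pnliprp2 ranged from 16.6 to 259.7 CPM, and the highest of these values came from the 12 Tuft-1 cells of the 4-week mouse 1. In the progenitors named MucinDuctalProgenitor it stood at 35.7 and 129 CPM in the second mouse of each time point, the only mice with at least 20 such cells, below background in both. The broader EEC label held 182 and 90.02 CPM after 2 weeks and 105 and 193 CPM after 4, above background in 3 of 4 mice, and Tuft cells held 32.7 to 99.2 CPM, above it in 0 of 4.

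Whether Tuft and EEC cells stood above background depended on the scale. In Tuft cells all 5 genes were below background by CPM in 4 of 4 mice, with Clps at 1312 and 1016 CPM after 2 weeks and 2009 and 934 CPM after 4. In EEC (enteroendocrine) cells Clps stood at 2754 and 3536 CPM after 2 weeks and 2105 and 1890.0 CPM after 4, above background in 1 of 4 mice, and Pnlip at 435 and 211 CPM after 2 weeks and 367 and 354 CPM after 4. Pnlip there was above background in 1 of 4 mice too, the 2-week mouse 2, whose background was lowest. Per cell, Clps was above background in 4 of 4 mice in both types, at 23.3 to 49.9 UMIs in EEC and 15.2 to 31.5 UMIs in Tuft cells against 5.39 to 22.4 UMIs in background cells. These cells were deeper too, with medians of 11136 to 20481 UMIs. Ductal-like cells, only 22 to 56 per mouse, held Clps at 6906 and 4229.6 CPM after 2 weeks and 21573 and 2656 CPM after 4. This was above background in 3 of 4 mice, by 1.15 ± 1.26 on the log2 CPM scale (mean ± SD), and Clps made up 81.2% and 84.7% after 2 weeks and 89.8% and 54.8% after 4 of the UMIs of the 5 genes. So the excess of Clps over the lipases seen in MucinDuctal cells was there too, except in the 4-week mouse 2. By CPM, Pnlip, Pnliprp1 and Cel were below background in 4 of 4 mice, and Pnliprp2 in 2 of 4. Per cell, Clps, Pnliprp1, Pnliprp2 and Cel were above background in 4 of 4 mice and Pnlip in 3 of 4, in cells with a median of 8889 to 38506 UMIs. The high Clps value came from the 4-week mouse 1, whose Ductal-like cells also held 70516 CPM of the 8 acinar markers against 13732 to 16653 CPM in the other 3 mice. The part of those markers in the Clps value was not tested. Without that mouse the mean log2 excess of Clps was 0.77.

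Below the acinar types the order of levels differed by gene. For Clps, MucinDuctal (8874 ± 6042 CPM) and Ductal-like (8841 ± 8667 CPM) cells came next with overlapping values, followed by progenitor (3443 ± 1416 CPM, n = 3), EEC (2571 ± 741 CPM) and Tuft (1318 ± 489 CPM) cells, each overlapping the one before. For Pnlip the order was EEC (342 ± 94.2 CPM), Ductal-like (274 ± 139 CPM), Tuft (209 ± 108 CPM), progenitor (144 ± 85.5 CPM, n = 3) and MucinDuctal (127 ± 62.98 CPM) cells, each overlapping its neighbour. Pnliprp1 was lowest in MucinDuctal cells too (349 ± 166 CPM). Cel was about as low in MucinDuctal (97.9 ± 45.7 CPM) as in progenitor cells (98.4 ± 17.4 CPM, n = 3). The spreads are SDs over 4 mice unless stated.

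Other acinar genes give a scale for the family. The 22 other digestive enzymes found of 23 listed (trypsinogens, chymotrypsins, elastases, carboxypeptidases, amylases and others) summed to 383471 to 473759 CPM in Acinar cells. The log2 ratio of the 4 lipases to these enzymes was -3.45 and -3.43 after 2 weeks and -3.34 and -3.64 after 4 in Acinar cells and -4.17 and -5.04 after 2 weeks and -4.63 and -4.58 after 4 in MucinDuctal cells. So the lipases were lower against the enzymes in MucinDuctal cells in 4 of 4 mice. Clps was higher against them in 3 of 4 mice: -3.00 and -2.64 after 2 weeks and -2.68 and -3.22 after 4 in Acinar cells and -1.03 and -2.91 after 2 weeks and 0.25 and -0.97 after 4 in MucinDuctal cells, with the 2-week mouse 2 as the exception. Of 7 listed acinar transcription factors, 5 were above background in MucinDuctal cells in 4 of 4 mice (Bhlha15, Nr5a2, Gata4, Nr0b2 and Xbp1), and the other 2, Ptf1a and Rbpjl, were not. Ptf1a stood at 64.5 and 62.2 CPM after 2 weeks and 38.5 and 65.1 CPM after 4 in Acinar cells and at 2.90 and 2.08 CPM after 2 weeks and 0.835 and 1.07 CPM after 4 in MucinDuctal cells. Rbpjl stood at 156 and 207 CPM after 2 weeks and 138 and 128 CPM after 4 and at 21.9 and 20.3 CPM after 2 weeks and 9.47 and 10.3 CPM after 4. Bhlha15, a factor of secretory cells also known as Mist1, was lower in MucinDuctal than in Acinar cells too, at 76.8 and 84.1 CPM after 2 weeks and 96.5 and 58.9 CPM after 4 in Acinar cells and 40.6 and 17.9 CPM after 2 weeks and 24.6 and 31.3 CPM after 4, and its MucinDuctal level was above background (7.79 ± 4.32 CPM, SD, n = 4) in 4 of 4 mice. Nr5a2 averaged 49.9 ± 17.2 CPM in Acinar and 21.1 ± 6.41 CPM in MucinDuctal cells. Gata4 (22.98 ± 6.68 against 49.4 ± 7.28 CPM) and Xbp1 (195.98 ± 53.3 against 423 ± 85.4 CPM) were higher in MucinDuctal cells in 4 of 4 mice, and Nr0b2 averaged 13.3 ± 4.06 and 16.1 ± 5.20 CPM (SD, n = 4).

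A list of 19 further lipase and lipase-related genes, among them Lpl, Liph, Lipa and Pnpla2, lay far below each pancreatic lipase in Acinar cells but not in MucinDuctal cells. The list includes Lmf1, Lmf2, Gpihbp1 and Abhd5, which are not lipases themselves, so it does not measure lipases alone. It summed to 77.7 and 70.9 CPM after 2 weeks and 65.4 and 50.5 CPM after 4 in Acinar cells and 193 and 198 CPM after 2 weeks and 198 and 195 CPM after 4 in MucinDuctal cells, so MucinDuctal cells were higher in every mouse. In MucinDuctal cells the sum was above Cel and Pnliprp2 in 4 of 4 mice and above Pnlip in 3 of 4, and Liph, Lipg and Pnpla2 were among the 7 of 19 genes above background there in 4 of 4 mice. Lipf (gastric lipase) and Lipi were at 0 in both types in all 4 mice.

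The genes most alike in pattern, leaving out the 5 genes themselves, were sought over 28 sums (7 types in 4 mice) among 7973 genes, by Pearson's r of log2(CPM + 1), as a description in which sums of 1 mouse share a library. For Pnlip these were Zg16 (r = 0.993), Ctrl (0.990) and Cela2a (0.990). Those of Pnliprp1 included Cpa1 (0.998) and Try10 (0.994), and those of Cel included Cpa1 (0.997) and Cpb1 (0.996). For Pnliprp2 they were Sycn (0.970), Serpini2 (0.970) and Cela2a (0.965). The Tuft/EEC.Progenitor cells, where Pnliprp2 parted from the family, were too few in 1 mouse and are not among the 7 types. Within the family, Pnliprp1 and Cel had an r of 0.996 with each other, and Pnliprp2 was nearest to Pnliprp1 (0.967). Clps had other neighbours, Pdia2 (0.959), Reg1 (0.953) and Bhlha15 (0.953), and its r with the lipases was lower, from 0.843 with Pnlip to 0.914 with Pnliprp2.

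Between 2 and 4 weeks of caerulein, none of the 5 genes passed the test in any of the 7 types with enough cells. In Acinar cells edgeR's quasi-likelihood test called 0 of 5 members and 0 of 12343 genes (0%) at an adjusted p under 0.05, with 344 genes at an unadjusted p under 0.05, and DESeq2 called 15 genes, none of them a member. Pnlip stood at 6780 and 4111 CPM in the 2-week mice and at 9948 and 6732 CPM in the 4-week mice, which overlap, and its fitted log2 change was 1.04 (SE 0.46), edgeR adjusted p = 0.998. That change was 1.70 without the 2-week mouse 1 and 0.62 without the 2-week mouse 2. Pnliprp2 stood at 1394 and 1362 CPM against 1606 and 1624 CPM, and its fitted change was 0.68 (SE 0.31), edgeR adjusted p = 0.998. The fitted changes were 0.55 (SE 0.37) for Pnliprp1, 0.47 (SE 0.37) for Cel and 0.58 (SE 0.41) for Clps. An exact permutation test of 2 mice against 2 cannot go below p = 0.333.

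Those Acinar values depend on the scaling. With TMM factors the median over all genes was -0.03 and that of the other digestive enzymes 0.60, positive for 19 of 21 tested. With total UMIs alone the median of all genes was -0.48, and the members were at 0.61 (Pnlip), 0.10 (Pnliprp1), 0.23 (Pnliprp2), 0.02 (Cel) and 0.11 (Clps). Such a change scales all genes of a library by the same factor, so the members had to shift with the median of all genes. The same change of scaling moved that median to -0.18 in Acinar.Prolif and -0.13 in MucinDuctal cells.

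In the other types 0 of 5 members passed edgeR's test either, beside 1 of 10046 genes called in Acinar.Prolif (0.00995%), 0 of 11620 in Acinar/MucinDuctal (0%), 0 of 13463 in MucinDuctal (0%), 0 of 8748 in Ductal-like (0%), 0 of 10967 in Tuft (0%) and 0 of 11869 in EEC cells (0%). In the same order, 246, 397, 726, 461, 739 and 478 genes were at an unadjusted p under 0.05, and DESeq2 called 2, 23, 40, 0, 31 and 14 genes, none of them a member. In Acinar/MucinDuctal cells the fitted log2 change of Pnlip was 0.92 (SE 0.33), edgeR adjusted p = 0.999. The other 4 members there lay between -0.12 and 0.16. Whether the time difference itself differed between Acinar/MucinDuctal and Acinar cells was tested with an interaction term, in a fit with each mouse as a block: 0 of 5 members passed, beside 22 of 13411 genes (0.164%) and 644 at an unadjusted p under 0.05, and DESeq2 called 18. The interaction was -0.19 (SE 0.54) for Pnlip and -0.74 to -0.44 for the other 4. With total UMIs alone the median of all genes in this term moved from -0.03 to 0.39, and Pnlip turned to 0.24.

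The Clps difference seen in MucinDuctal cells was wide and uncertain. Its fitted change was 1.21 (SE 0.96), edgeR adjusted p = 0.853. It was 3.08 without the 2-week mouse 1 and 0.43 without the 2-week mouse 2, and the 2-week mice, at 9639 and 1607 CPM, lay further apart than the means of the time points. In EEC cells the fitted changes of Pnliprp1, Cel and Clps were below 0. Pnliprp1 stood at 1201 and 848 CPM after 2 weeks and 597 and 668 CPM after 4, with a fitted change of -0.62 (SE 0.21). Cel, at -0.66 (SE 0.20), and Clps, at -0.56 (SE 0.17), went the same way. For all 3 the edgeR adjusted p was 0.986. Without the 2-week mouse 1, the changes of Pnliprp1 and Cel were -0.28 and -0.33. The other digestive enzymes in EEC cells had a median of -0.24, with 6 of 20 at an unadjusted p under 0.05. These levels are close to background.

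In Ductal-like cells Pnliprp1 stood at 811 and 489.6 CPM after 2 weeks and 1421 and 1411 CPM after 4, and its fitted change was 1.15 (SE 0.28), edgeR adjusted p = 0.826. Several calls appeared in edgeR when 1 mouse was left out, which assumes that the lone mouse of its group varies like the other pair. Without the 2-week mouse 1, calls were made for Pnlip (1.50) and Pnliprp2 (1.86) in MucinDuctal cells, beside 191 of 14274 genes (1.34%). In Tuft cells Pnlip (1.50) was called, beside 273 of 11818 genes (2.31%), and in EEC cells Pnlip (0.92) and Clps (-0.67), beside 366 of 12218 genes (3%). In Ductal-like cells Pnlip (2.33), Pnliprp1 (1.51), Pnliprp2 (2.05) and Cel (1.02) were called, beside 230 of 7400 genes (3.11%). Without the 2-week mouse 2, calls were made in EEC cells for Pnliprp1 (-0.90) and Cel (-0.93), beside 207 of 12211 genes (1.7%). The 2-week mouse 2, the lone 2-week mouse in the first set, is the one with the lowest background, and the part of background in these calls was not tested. With no filter on low counts, edgeR also called Pnliprp1 (1.10) and Pnliprp2 (1.75) in Ductal-like cells, beside 81 of 16605 genes (0.488%), and Pnliprp1 (-0.63) and Cel (-0.66) in EEC cells, beside 74 of 19123 genes (0.387%).

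**Figure D5:**
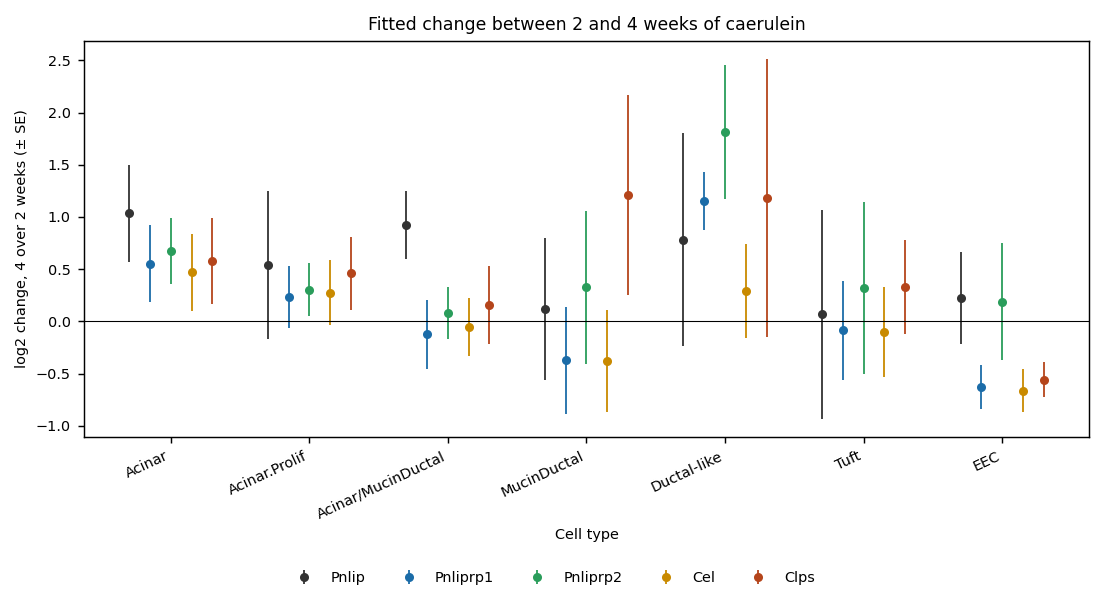
Fitted log2 change from 2 to 4 weeks of caerulein for each gene in each of the 7 types tested, with bars of 1 SE derived from edgeR's log2 change and F statistic (2 mice against 2). No point passed the test over all genes; the widest bars belong to Clps and Pnlip in Ductal-like cells (SE 1.33 and 1.02).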

How the data were processed

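Single-cell RNA libraries were made from sorted EYFP+ pancreas cells of 4 mice. The authors deposited UMI counts per gene and cell, not normalized, with tables of cell types, clusters and subtypes. Per the submitters' processing notes the data passed through Cell Ranger 4.0.0, Seurat 3.2.3 and mm10. Cells had at least 1000 UMIs.

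The 5 genes and all lists were chosen with earlier results of these data known. Counts were summed per mouse and deposited type and divided by all UMIs of the sum (CPM). The mouse was the replicate. Types with at least 20 cells in each mouse were tested between 4 and 2 weeks with edgeR 4.0.16 in R 4.3.3 (quasi-likelihood, TMM, filterByExpr, Benjamini-Hochberg over all genes). The SE of a log2 change is its absolute value divided by the square root of edgeR's F statistic. It is not a direct SD over mice. DESeq2 1.42.0, no filter, size factors, enzymes left out of library sizes, total UMIs alone (chosen after seeing the data) and each mouse left out were alternatives. The edgeR script was tested on simulated data.

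Leiden clusters of the cells without a type (resolution 0.6, 15 neighbours, 30 components of 2000 variable genes, scanpy 1.11.5) were named by at least 3 markers detected in 20% of cells. Clusters named B cell-like and T/NK cell-like served as background. Rebuilt names may differ from the authors'. No doublet caller was run; leaving out the 5% of cells with the most UMIs was tried instead, after seeing the data. Thinning to 1500 UMIs used 20 draws, and 3000 UMIs was the alternative. Named genes are the 5 members, genes of the lists, and for each member the 3 genes outside the family with the highest Pearson r of log2(CPM + 1) among genes of at least 10 CPM on average. A gene that this rule named for Pnliprp1 and Cel is not reported here. Promoters of 4 of the 5 genes matched by symbol in RefSeq. Exact 95% intervals cover counting error only.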

Additional observations from a re-analysis of the deposited data

How the results depend on the processing

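Of the recomputed log2 changes of the 5 genes between time points, 314 kept their direction and their side of the threshold, 15 became calls and 31 changed sign, most of them with 1 mouse left out. The numbers of genes called moved with most settings. With no filter on low counts edgeR called 286 genes in Acinar, 51 in Acinar.Prolif, 128 in Acinar/MucinDuctal, 6 in MucinDuctal, 266 in Tuft, 81 in Ductal-like and 74 in EEC cells, and 80 in the interaction. DESeq2 called 15, 2, 23, 40, 31, 0 and 14 in the same order. With total UMIs alone, a setting chosen after seeing the data, edgeR called 9 in Acinar, 2 in Acinar.Prolif, 3 in Acinar/MucinDuctal, 7 in EEC cells and 59 in the interaction. Under that scaling Pnliprp2 in Acinar/MucinDuctal cells turned to -0.0090 and Pnlip in the interaction to 0.24. Leaving out 1 mouse at a time gave 13 to 129 calls in Acinar, 5 to 143 in Acinar.Prolif, 0 to 122 in Acinar/MucinDuctal, 0 to 191 in MucinDuctal, 5 to 273 in Tuft, 0 to 230 in Ductal-like and 0 to 366 in EEC cells, and 8 to 179 in the interaction.

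The signs that turned with 1 mouse left out came with these ranges of log2 change. Pnlip ranged from -0.30 to 1.44 in Acinar.Prolif, -0.68 to 1.50 in Tuft, -0.57 to 1.50 in MucinDuctal, -0.24 to 0.92 in EEC and -0.41 to 0.036 in the interaction. Pnliprp1 ranged from -0.30 to 0.042 in Acinar/MucinDuctal, -0.54 to 0.56 in Tuft and -0.93 to 0.56 in MucinDuctal. Pnliprp2 ranged from -0.12 to 0.26 in Acinar/MucinDuctal, -0.35 to 1.14 in Tuft, -0.41 to 1.86 in MucinDuctal and -0.27 to 0.87 in EEC. Cel ranged from -0.030 to 0.67 in Acinar.Prolif, -0.15 to 0.056 in Acinar/MucinDuctal, -0.53 to 0.45 in Tuft, -0.20 to 1.02 in Ductal-like and -0.93 to 0.51 in MucinDuctal. Clps ranged from -0.30 to 0.77 in Tuft and -1.09 to 2.01 in Ductal-like. The Clps share in MucinDuctal cells was 78.3% as a mean over cells, against 90.1% of summed UMIs. Without serine proteases in the list of other enzymes, the log2 ratio of the 5 genes to that list was 1.10 in Acinar, 1.30 in Acinar/MucinDuctal and 2.31 in MucinDuctal cells, since the shorter list sums to less. Against all cells without a type, the log2 ratio of UMIs per cell was 0.76 for Clps and -2.18 for Pnliprp1 in MucinDuctal cells and 2.11 for Pnliprp2 in Tuft/EEC.Progenitor cells. By CPM, against the same cells, which include acinar-like clusters, Clps in MucinDuctal cells turned to -0.98 ± 1.15 (SD, n = 4), above them in 1 of 4 mice, and Pnliprp2 in the progenitor cells was 0.61 ± 1.34 (SD, n = 3), above in 2 of 3. For the other shifts the cause was not tested. Precision was lowest in Ductal-like cells, 22 to 56 per mouse, where the SE of a log2 change reached 1.33. Outside the acinar types, free RNA set the lowest level of a lipase that could be told from background. The 2 time points could not be paired, since each mouse was sampled at only 1 of them.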
